A study of Mus musculus with 18 samples.

Results

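The 49 genes described here encode Wnt ligands, their receptors, secreted antagonists and agonists, the signal transducers and a set of Wnt target genes. They were picked by gene symbol and found through the Entrez identifiers that label the 24100 gene rows of both deposited count tables, and 49 of 49 were found in each table. By role they are 10 ligands, 15 receptors, 12 antagonists, 3 agonists, 4 transducers and 5 targets. *Notum* and *Znrf3*, counted as antagonists, are also targets, and *Lef1* and *Tcf7*, counted as targets, are also transcription factors of the pathway.

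The study deleted *Atrx*, a chromatin remodeler of the SWI/SNF family, in C3H/10T1/2 cells, a mouse mesenchymal progenitor cell (MPC) line, and asked which genes change in expression when ATRX is lost. RNA was sequenced from 3 lines grown without differentiation stimuli. *Atrx* WT cells had received the Cas9 vector without a guide. The *Atrx* KO lines sg5 and sg6 were each made with a different guide and expanded from a single cell (clones G7 and B10). Each is thus 1 clone, and WT is also 1 line. The effect of the knockout cannot be told apart from other differences between the lines. A trait of the WT line would enter both comparisons. All 3 lines passed through transfection with the same Cas9-GFP plasmid and a single-cell sort. Every line has 3 polyA libraries and 3 rRNA-depleted libraries, 18 in all, and the sources do not say that the 3 libraries of a line came from separate cultures, so the tests measure the spread between libraries of 1 line.

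Wnt proteins are secreted, lipid-modified ligands that bind Frizzled receptors together with a co-receptor. With LRP5 or LRP6 they stop the APC and AXIN destruction complex from degrading β-catenin, which then acts in the nucleus with TCF/LEF factors, while with ROR or RYK they act without β-catenin on cell shape and migration. SFRP, DKK, WIF1 and KREMEN proteins block ligands or co-receptors, and R-spondins bound to LGR receptors keep Frizzleds at the surface by removing the ubiquitin ligase ZNRF3. In mesenchymal progenitors the β-catenin branch is known to favor bone and to restrain fat formation.

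Total counts were 27544833 to 80772108 in the WT polyA libraries, 161036799 to 235346363 in sg5 and 58918732 to 71896907 in sg6, and 20135336 to 33187136 in the rRNA-depleted libraries. Levels are given as CPM, read counts divided by the effective library size of each library. *Atrx* RNA stood at 276 to 328 CPM in WT, 114 to 138 CPM in sg5 and 122 to 141 CPM in sg6 in the polyA libraries, with log2foldchanges of -1.24 and -1.20. Of 45 cell type markers, 34 could be tested in the polyA libraries. In both clones, 4 rose (*Acta2*, *Eng*, *Lpl*, *Tagln*) and 5 fell (*Cdh1*, *Krt14*, *Lyz2*, *Pecam1*, *Sp7*), against 2.18% and 5.48% of all genes tested. *Krt14*, *Pecam1* and *Sp7* passed the filter on low counts through the WT libraries alone, so a fall was the call open to them. The 12 mesenchymal progenitor markers summed to 17965 to 19810 CPM in WT, 19517 to 20518 CPM in sg5 and 24366 to 27059 CPM in sg6. That sum is mostly *Vim*, *Col1a1* and *Col1a2*, and single markers went other ways, with *Thy1* at log2foldchanges of -1.73 in sg5 and 7.03 in sg6 and *Pdgfra* at -0.61 and -0.92, the latter not called. The 6 epithelial markers summed to 3.11 to 6.29 CPM in WT, 0.903 to 1.72 CPM in sg5 and 0.370 to 0.884 CPM in sg6. The 4 smooth muscle markers summed to 354 to 396 CPM in WT, 875 to 1173 CPM in sg5 and 1036 to 1237 CPM in sg6, and the 4 adipocyte markers to 9.48 to 12.0 CPM, 26.8 to 67.1 CPM and 62.3 to 82.0 CPM. The smooth muscle sum is nearly all *Acta2* (means of 371, 971 and 1103 CPM in WT, sg5 and sg6), while *Myh11* stood at 0.411, 0.402 and 0.438 CPM. The adipocyte sum is mostly *Lpl* (9.65, 34.5 and 69.4 CPM), the 1 of 3 adipocyte markers tested that was called in both clones. No marker was at 0 in all polyA libraries. The part of these marker levels in the Wnt results was not tested, and in bulk RNA fewer cells of a type and less RNA per cell cannot be told apart.

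A gene was called changed when its log2foldchange lay beyond 1 in either direction with an adjusted P below 0.05 in edgeR's quasi-likelihood test, fitted on the whole table. In the polyA libraries 41 of the 49 Wnt genes passed the filter on low counts. In sg5, 7 of them rose and 2 fell, against 3.18% and 6.96% of the 15480 genes tested. In sg6, 6 rose and 1 fell, against 3.64% and 7.54%. In both clones 5 rose (*Fzd7*, *Fzd9*, *Ror1*, *Frzb*, *Nkd2*) and 1 fell (*Dkk2*), against 2.18% and 5.48% of all genes tested. Both comparisons use the same WT libraries. The median log2foldchange of the 41 genes was 0.21 in sg5 and 0.02 in sg6, beside -0.0024 and -0.0061 over all genes tested. *Nkd2* reached the filter through the KO libraries alone and *Rspo3* through the WT and sg6 libraries alone. Of the 15480 genes tested, 3283 had all sg5 libraries above all WT libraries and 3140 had them all below. In sg6 these were 3471 and 3091 genes. Separation of all libraries was thus common, and where it is given below it describes the values only.

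The RefSeq promoters of the 6 Wnt genes called in sg5 as well as sg6 are described here because these genes carry the difference shared by the clones, 5 of them higher and *Dkk2* lower. Each run is the 250 bases before the RefSeq gene start (GRCm38.p6), read on the gene's strand. Capitals mark a match to CTTTGA, a form of the TCF/LEF core, or to its reverse complement TCAAAG. Other forms of the TCF/LEF site were not searched. Letters are printed for the 4 genes whose window lies wholly before the gene in the GENCODE annotation as well: *Fzd7* (chr1:59481897-59482146, plus strand), *Dkk2* (chr3:132085042-132085291, plus strand), *Ror1* (chr4:100095541-100095790, plus strand) and *Nkd2* (chr13:73847632-73847881, minus strand).
Fzd7: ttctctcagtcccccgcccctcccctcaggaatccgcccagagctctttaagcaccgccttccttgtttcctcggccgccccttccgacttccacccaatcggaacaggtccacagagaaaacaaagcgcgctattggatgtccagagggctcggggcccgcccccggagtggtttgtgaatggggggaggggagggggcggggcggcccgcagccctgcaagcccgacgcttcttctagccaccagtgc
Dkk2: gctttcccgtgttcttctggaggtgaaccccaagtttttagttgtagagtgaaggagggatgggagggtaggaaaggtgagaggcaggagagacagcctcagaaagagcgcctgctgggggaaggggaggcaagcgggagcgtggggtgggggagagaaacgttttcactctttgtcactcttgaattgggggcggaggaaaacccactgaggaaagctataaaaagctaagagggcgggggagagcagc
Ror1: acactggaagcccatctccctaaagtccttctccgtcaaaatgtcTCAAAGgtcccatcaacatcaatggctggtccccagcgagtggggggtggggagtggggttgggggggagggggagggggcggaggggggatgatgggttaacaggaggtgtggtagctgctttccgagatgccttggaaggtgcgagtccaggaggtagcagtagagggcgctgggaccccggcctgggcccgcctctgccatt
Nkd2: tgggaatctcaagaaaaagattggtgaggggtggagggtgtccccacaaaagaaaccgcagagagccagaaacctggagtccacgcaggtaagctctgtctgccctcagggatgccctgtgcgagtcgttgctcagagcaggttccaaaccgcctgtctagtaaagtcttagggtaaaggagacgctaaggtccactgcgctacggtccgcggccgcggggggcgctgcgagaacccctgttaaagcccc

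*Ror1* holds 1 match, on the minus strand, starting at position -205 from the gene start. *Frzb* also holds 1, at -95 on the minus strand of its window. *Fzd7*, *Fzd9*, *Dkk2* and *Nkd2* hold no CTTTGA on either strand in these 250 bases, which does not exclude other forms of the site. Of all 32851 RefSeq windows of this length, from 27025 genes, 13.8% hold CTTTGA on either strand. Of 41 windows from the 32 Wnt genes with an entry, 7 hold it (17.1%). The windows also differed in CpG dinucleotides, with 42 in *Fzd9*, 17 in *Fzd7*, 16 in *Frzb*, 14 in *Nkd2*, 8 in *Ror1* and 7 in *Dkk2*. The median over the 41 Wnt windows was 16, with a range of 4 to 48, and the median over all windows was 6. A match describes the letters alone.

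**Figure D1:**
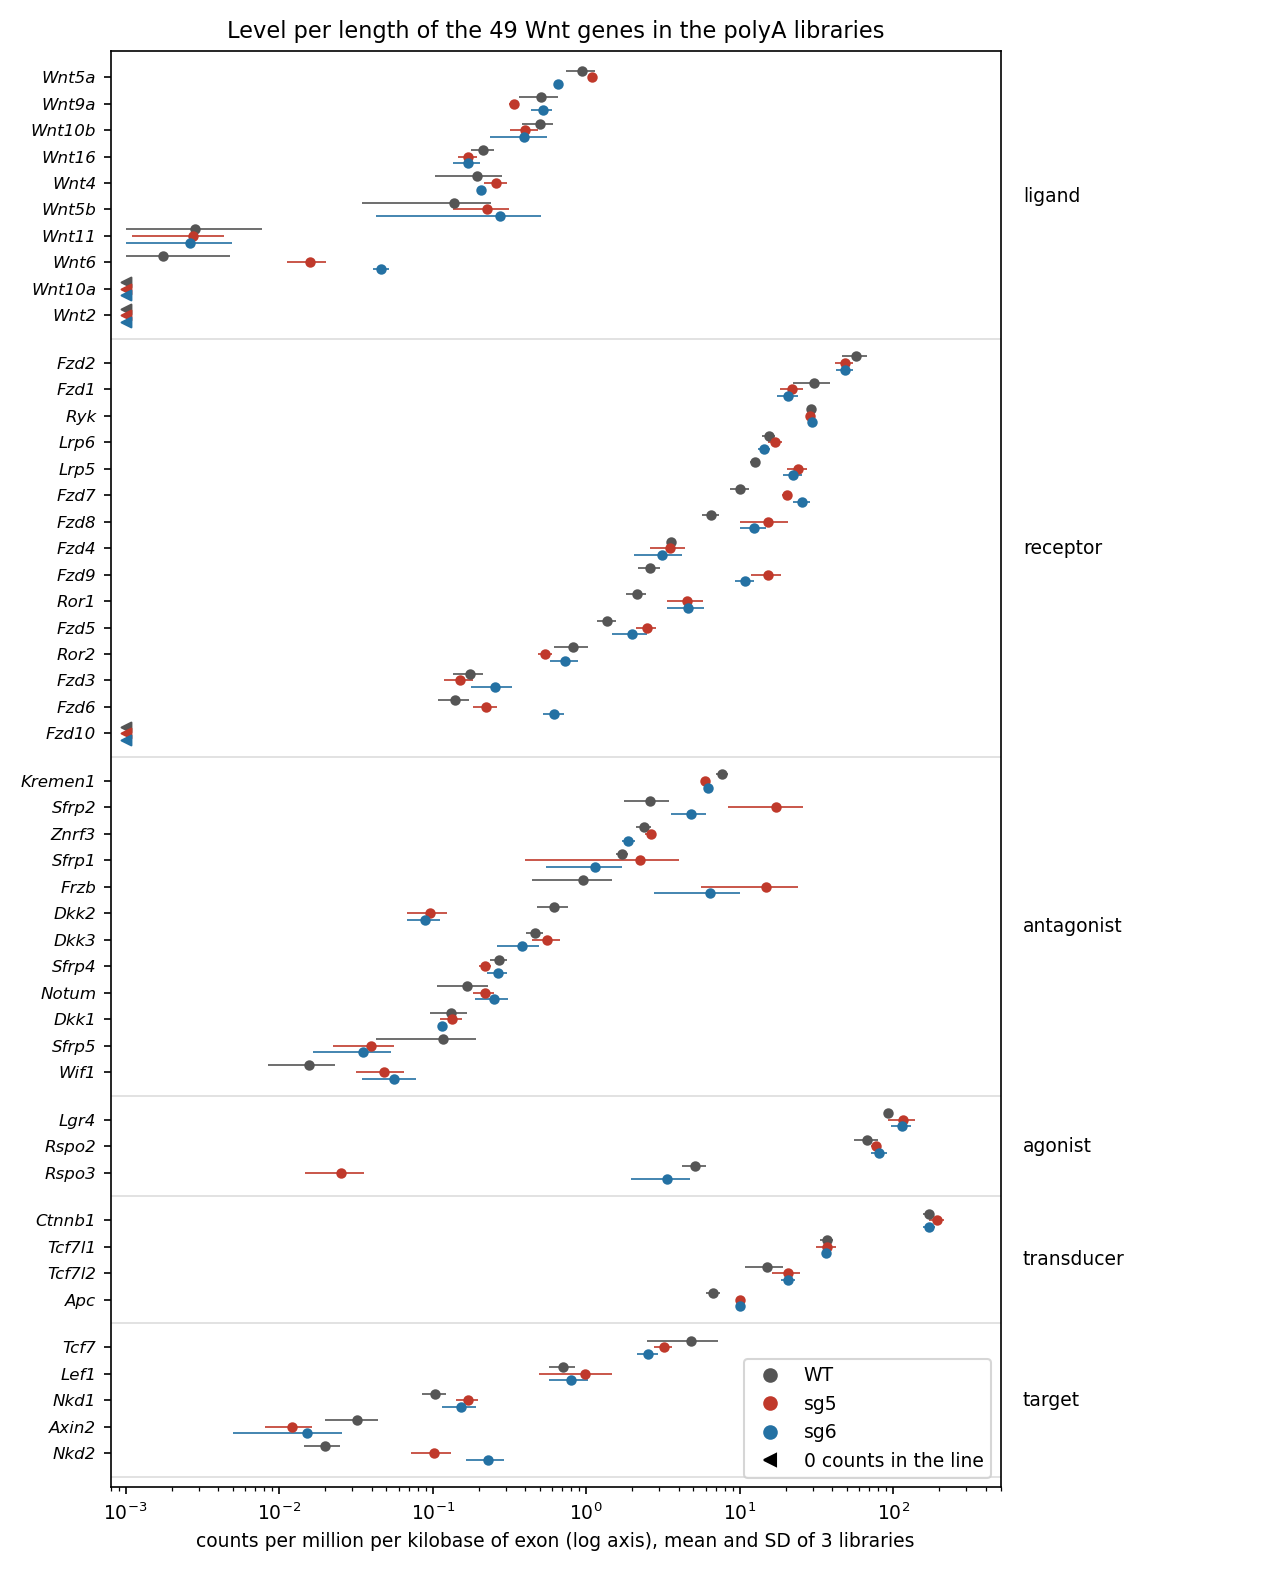
Level per length of the 49 Wnt genes in the polyA libraries, grouped by role, in CPM per kilobase of exon on a log axis. Points are means of 3 libraries of WT (grey), sg5 (red) or sg6 (blue), whiskers are SDs cut at the left edge of the axis, and triangles mark lines with 0 counts. The 3 lines overlie each other for *Ctnnb1*, *Ryk* and *Fzd2*, and WT stands apart from both clones for *Fzd9*, *Frzb* and *Dkk2*. *Rspo3* in sg5 lies far to the left of its level in WT and sg6.

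Wnt ligand RNAs were scarce in all 3 lines. Of 10 ligands, 6 passed the filter in the polyA libraries and 0 were called changed in either clone. Over all genes tested 3.18% rose and 6.96% fell in sg5, and 3.64% and 7.54% in sg6, so 0 of 6 is not read as a result about the ligands. The 10 together came to 10.1 to 16.3 CPM in the WT libraries, 12.7 to 14.1 CPM in sg5 and 9.31 to 12.3 CPM in sg6. *Wnt2* and *Wnt10a* had 0 counts in all 9 polyA libraries, *Wnt11* 0 to 3 counts and *Wnt6* 0 to 8 counts.

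*Wnt5a*, the main ligand of the β-catenin-independent branch, was the most abundant per length, at 0.941 ± 0.203 CPM per kilobase in WT (SD, n = 3). Its level was 5.9, 7.14 and 9.05 CPM in the WT libraries, 8.90, 8.28 and 8.39 CPM in sg5, and 5.24, 4.77 and 5.45 CPM in sg6. The sg6 libraries lay below all others. The log2foldchange was -0.52 ± 0.16 (SE) in sg6, with an adjusted P of 0.034, and 0.21 ± 0.16 in sg5, with an adjusted P of 0.36. The 2 clones differed by 0.73 ± 0.16, with an adjusted P of 0.030. None of these was beyond a log2foldchange of 1.

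*Wnt9a* and *Wnt10b* followed per length, at 0.508 ± 0.144 and 0.496 ± 0.114 CPM per kilobase in WT, which is within their spread. *Wnt9a* was at 1.22, 1.67 and 2.18 CPM in WT, 1.09, 1.09 and 1.23 CPM in sg5, and 1.42, 1.93 and 1.85 CPM in sg6. *Wnt10b*, a ligand known to restrain adipogenesis, was at 1.29, 1.70 and 2.07 CPM in WT, 1.12, 1.30 and 1.67 CPM in sg5, and 0.725, 1.57 and 1.74 CPM in sg6. The libraries of the lines overlapped for both genes, with *Wnt10b* log2foldchanges of -0.32 (sg5, adjusted P = 0.51) and -0.34 (sg6, adjusted P = 0.47). *Wnt16*, *Wnt4* and *Wnt5b* were lower still, at 0.137 to 0.214 CPM per kilobase in WT, and their log2foldchanges ran from -0.33 to 0.95 with no call.

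Of 15 receptors, 14 were tested in the polyA libraries. In each clone 4 rose and 0 fell, 3 of them in both clones (*Fzd7*, *Fzd9*, *Ror1*), with *Fzd8* added in sg5 and *Fzd6* in sg6. Over all genes tested 3.18% rose in sg5, 3.64% in sg6 and 2.18% in both clones, and 6.96%, 7.54% and 5.48% fell. The median log2foldchange of the 14 was 0.43 in sg5 and 0.54 in sg6, beside -0.0024 and -0.0061 over all genes. *Fzd10* had 0 counts in every polyA library.

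*Fzd9*, a Frizzled with a role in osteoblast function, showed the largest rise among receptors shared by the clones. Its level was 5.48, 5.32 and 7.03 CPM in the WT libraries, 42.1, 26.9 and 36.0 CPM in sg5, and 23.0, 22.8 and 28.7 CPM in sg6. Every KO library lay above every WT library, a separation that was common over all genes tested, as given above. The rise was 5.89-fold in sg5 (log2foldchange 2.56 ± 0.19, adjusted P = 3.2e-05) and 4.18-fold in sg6 (2.06 ± 0.19, adjusted P = 7.8e-05). The clones differed by 0.49 ± 0.18, with an adjusted P of 0.19. Per length *Fzd9* was at 2.59 ± 0.411 CPM per kilobase in WT, 15.3 ± 3.35 in sg5 and 10.8 ± 1.47 in sg6. *Fzd9* lies on the minus strand of chromosome 5, from 135248938 to 135251230 in the GENCODE annotation of GRCm38, and shares no 31-base word with another gene's transcripts.

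*Fzd7*, a Frizzled linked to the progenitor state in several tissues, was at 52.5, 43.3 and 40.5 CPM in WT, 86.6, 101 and 89.6 CPM in sg5, and 127, 120 and 98.6 CPM in sg6. All 6 KO libraries lay above all WT libraries. The log2foldchange was 1.02 ± 0.13 in sg5 (adjusted P = 0.00048) and 1.34 ± 0.13 in sg6 (adjusted P = 9.5e-05). The sg5 value sits at the edge of the fold threshold and fell below it, to 0.98, 0.95 and 0.96, without WT replicate 2, WT replicate 3 or sg5 replicate 2. Centred on the median of all genes of chromosome 1 it was 0.96, which left *Fzd7* called in sg6 alone.

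*Ror1*, a tyrosine kinase-like receptor for WNT5A, was at 12.2, 10.4 and 14.2 CPM in WT, 34.2, 20.7 and 24.0 CPM in sg5, and 34.2, 20.2 and 25.4 CPM in sg6. Replicate 1 was the highest in both KO lines, and all KO libraries exceeded the WT libraries. The log2foldchanges were 1.1 ± 0.24 (sg5, adjusted P = 0.0086) and 1.12 ± 0.24 (sg6, adjusted P = 0.0069). It dropped below 1 without replicate 1 of the KO line in question, to 0.86 in sg5 and 0.88 in sg6. Without WT replicate 2 it was 0.98 in sg5 and 0.998 in sg6, both short of the fold threshold. On the genome *Ror1* overlaps *Gm12706* on the opposite strand and *Gm12701* on its own, and without a stated strand setting their reads cannot be told apart.

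*Fzd6*, a Frizzled of the planar polarity branch, differed between the clones. It was at 0.838, 0.538 and 0.645 CPM in WT, 1.21, 1.14 and 0.863 CPM in sg5, and 2.99, 3.45 and 2.54 CPM in sg6. The sg6 libraries stood above all others, and those of sg5 were just above WT. The log2foldchange was 2.19 ± 0.23 in sg6 (adjusted P = 0.00019) and 0.71 ± 0.23 in sg5 (adjusted P = 0.048), and sg5 was lower than sg6 by 2.79-fold (-1.48 ± 0.21, adjusted P = 0.0041).

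*Fzd8* rose in sg5, from 38.8 ± 4.83 CPM in WT to 91.4 ± 31.1 CPM (log2foldchange 1.24 ± 0.23, adjusted P = 0.0046). In sg6 it was at 74.5 ± 14.1 CPM, a log2foldchange of 0.94 ± 0.23 with an adjusted P of 0.014, short of the fold threshold. The clones differed by 0.29 with an adjusted P of 0.61, so the call in sg5 alone does not show a difference between clones. Without sg5 replicate 1 the sg5 value was 0.92. The median log2foldchange of all 417 genes tested on chromosome 18, where *Fzd8* lies, was 0.40 in sg5 and 0.35 in sg6, and relative to it *Fzd8* was at 0.84 and 0.59, short of the threshold in both clones. *Lrp5*, a co-receptor for β-catenin signaling, also stayed just short of the threshold, at 122 ± 8.69 CPM in WT, 232 ± 33.3 CPM in sg5 and 217 ± 31.7 CPM in sg6 (0.93 and 0.83, adjusted P = 0.0012 and 0.0017). *Fzd5* was 0.87 higher in sg5 on the log2 scale (adjusted P = 0.012) and 0.54 in sg6 (adjusted P = 0.071).

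The receptors with the highest level per length in WT were *Fzd2*, *Fzd1* and *Ryk*, at 57.1 ± 10.7, 30.5 ± 8.32 and 29.2 ± 1.33 CPM per kilobase, of which the last pair do not differ beyond their spread. *Fzd2* was at 192, 182 and 254 CPM in WT, 196, 150 and 183 CPM in sg5, and 159, 174 and 203 CPM in sg6. *Fzd1* was at 96.6, 122 and 166 CPM in WT, 110, 81.0 and 86.8 CPM in sg5, and 101, 73.1 and 86.8 CPM in sg6. *Ryk*, an atypical kinase receptor, ran from 126 to 139 CPM over all 9 libraries. None of the 3 was called, with log2foldchanges of -0.24 and -0.23 for *Fzd2*, -0.47 and -0.56 for *Fzd1* (adjusted P = 0.12 and 0.064) and -0.02 and 0.02 for *Ryk*. Reads can be shared between Frizzled genes, but *Fzd1*, *Fzd2* and *Fzd7* share 0.777% to 1.90% of their 31-base words with other genes, mostly with each other. *Lrp6*, *Fzd4*, *Fzd3* and *Ror2* were not called either, with log2foldchanges between -0.59 and 0.54.

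**Figure D2:**
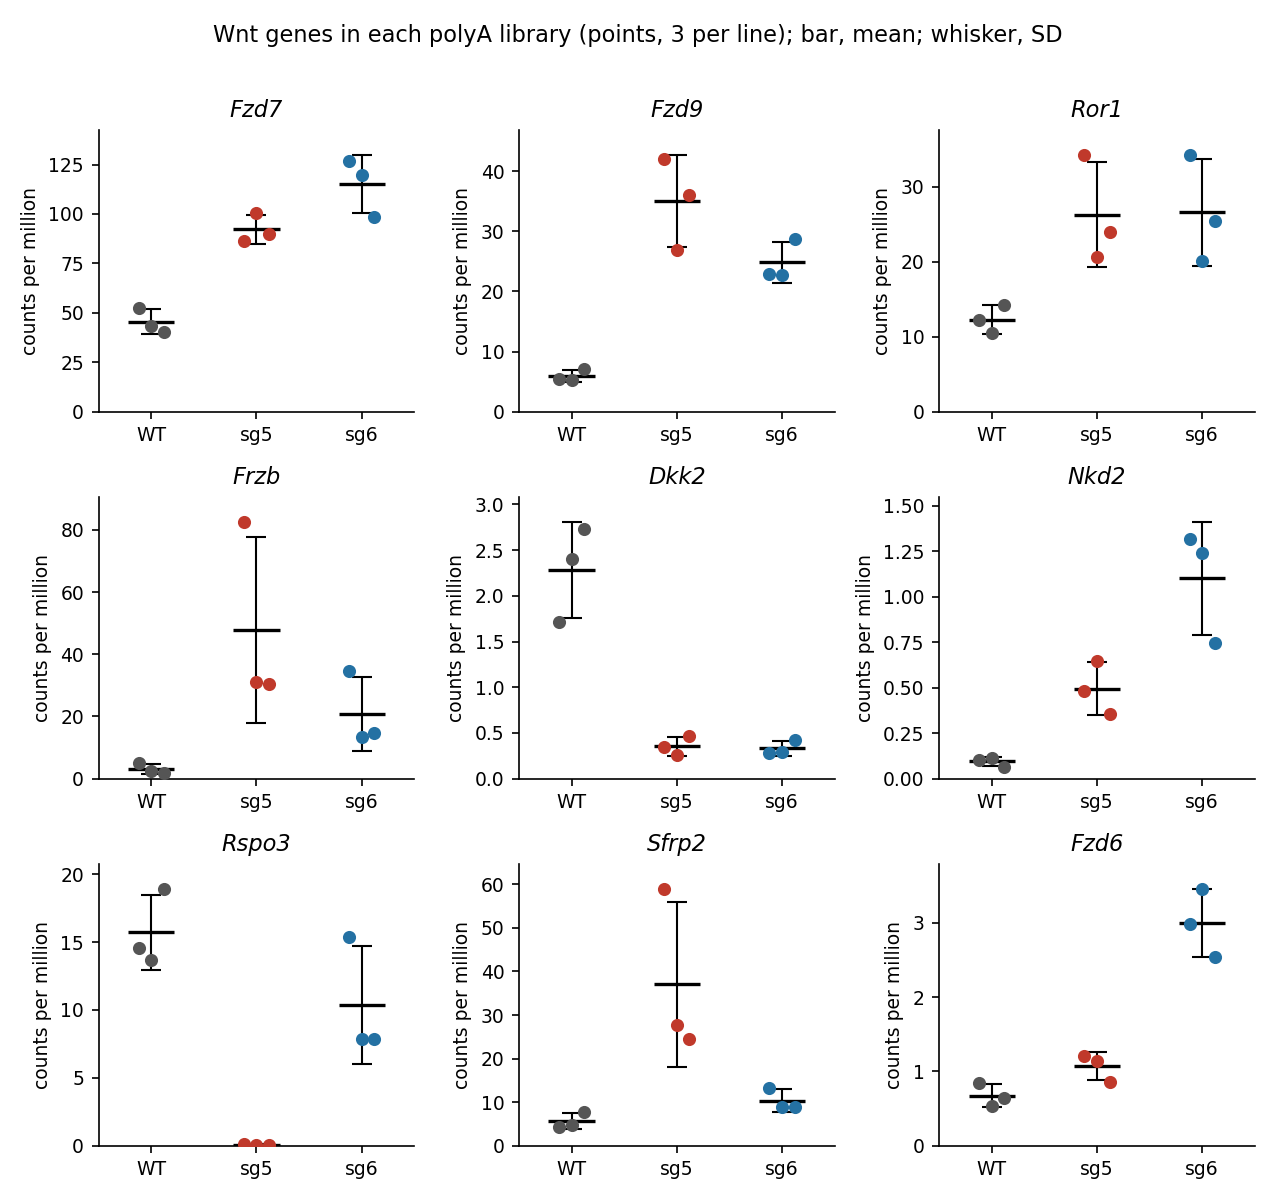
CPM of 9 Wnt genes in each polyA library, on linear axes that start at 0. Points are libraries of WT (grey), sg5 (red) and sg6 (blue), bars are means and whiskers SDs of 3 libraries. The first 6 panels are the genes called in both clones, and the last 3 are those that differed between sg5 and sg6, with *Rspo3* near 0 in sg5 alone.

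Among antagonists, 10 of 12 were tested. In sg5, 2 rose and 1 fell, against 3.18% and 6.96% of all genes tested. In sg6, 1 rose and 1 fell, against 3.64% and 7.54%. The genes that rose and the gene that fell are secreted, as are the other antagonists tested except *Kremen1* and *Znrf3*. *Frzb* (sFRP3), a decoy for Wnt ligands known from cartilage, had the largest rise of the 41 genes in sg5. It was at 4.96, 2.53 and 1.78 CPM in WT, 82.5, 31.02 and 30.4 CPM in sg5, and 34.5, 13.2 and 14.7 CPM in sg6. Replicate 1 was the highest library in all 3 lines, and every KO library was above the WT libraries. The rise was 16.1-fold in sg5 (4.0 ± 0.60, adjusted P = 0.0013) and 6.97-fold in sg6 (2.80 ± 0.57, adjusted P = 0.0058). The difference between clones was 1.2 ± 0.52, with an adjusted P of 0.27. A fit blocked on replicate number (the replicate block) gave 1.18 with an adjusted P of 0.00074, which is a call.

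*Dkk2*, which binds LRP5 and LRP6, was the only Wnt gene called lower in both clones in the polyA libraries. Its level was 1.71, 2.40 and 2.74 CPM in the WT libraries, 0.347, 0.257 and 0.463 CPM in sg5, and 0.281, 0.289 and 0.426 CPM in sg6. WT and KO libraries did not overlap, while the clones overlapped each other. *Dkk2* fell 6.49-fold in sg5 (-2.70 ± 0.28, adjusted P = 0.00018) and 6.95-fold in sg6 (-2.80 ± 0.30, adjusted P = 0.000195). Its relatives did not follow, with *Dkk1* at log2foldchanges of 0.07 and -0.14 and *Dkk3* at 0.25 and -0.30, none of them called.

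*Sfrp2*, another secreted decoy, separated the clones. It was at 4.37, 4.79 and 7.74 CPM in WT, 58.9, 27.8 and 24.5 CPM in sg5, and 13.3, 8.82 and 8.81 CPM in sg6. All sg5 libraries were above all sg6 libraries, and these were above WT. The log2foldchange was 2.71 ± 0.38 in sg5 (adjusted P = 0.00093) and 0.87 ± 0.36 in sg6 (adjusted P = 0.10), and sg5 exceeded sg6 by 3.59-fold (1.84 ± 0.36, adjusted P = 0.020). The last adjusted P became 0.10 without sg6 replicate 2 and 0.085 without sg6 replicate 3.

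*Kremen1*, a DKK receptor, had the highest level per length of the antagonists in WT (7.65 ± 0.675 CPM per kilobase). It was at 53.3, 60.6 and 63.4 CPM in WT, 43.5, 46.7 and 46.8 CPM in sg5, and 47.5, 49.8 and 46.9 CPM in sg6. The WT libraries lay above all 6 KO libraries, with log2foldchanges of -0.37 ± 0.08 in sg5 and -0.30 ± 0.08 in sg6 (adjusted P = 0.0092 and 0.022), which is small against the fold threshold. Relative to the median of chromosome 11, where *Kremen1* lies, it was at -0.12 in sg5 and -0.14 in sg6. *Znrf3*, the ligase that removes Frizzleds from the surface, was at 17.1, 18 and 21.0 CPM in WT, 22.3, 18.99 and 21.0 CPM in sg5, and 16.5, 14.5 and 13.6 CPM in sg6, and the clones differed by 0.48 ± 0.12 with an adjusted P of 0.049. *Sfrp1* varied among libraries of a line, at 18.95, 5.24 and 5.002 CPM in sg5 and 7.92, 3.70 and 3.27 CPM in sg6 against 6.76 to 8.17 CPM in WT, and was not called. *Sfrp4* and *Notum* were not called, and *Sfrp5* (3 to 17 counts a library) and *Wif1* (1 to 26 counts) were too low to test.

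The agonists held the largest difference between clones. *Rspo3*, an R-spondin that strengthens Wnt signaling, was at 14.5, 13.7 and 18.9 CPM in WT and 15.4, 7.86 and 7.85 CPM in sg6. In the sg5 libraries it was at 0.107, 0.0829 and 0.0432 CPM, which is 17, 19 and 7 counts in the deepest libraries of the series. The sg5 libraries were thus near 0, and the sg6 libraries reached from below WT into the WT range. *Rspo3* fell 198-fold in sg5 (-7.63 ± 0.41, adjusted P = 5.2e-06). In sg6 the log2foldchange was -0.60 ± 0.29 with an adjusted P of 0.15, and sg5 was 131-fold below sg6 (-7.03 ± 0.41, adjusted P = 1.8e-05). *Rspo3* overlaps *Gm48159* on the opposite strand and *Gm20276* on its own strand on chromosome 10, between 29452416 and 29535867.

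Its relative *Rspo2* and the R-spondin receptor *Lgr4* were abundant in all 3 lines. *Lgr4* was at 550, 554 and 518 CPM in WT, 816, 548 and 666 CPM in sg5, and 710, 556 and 734 CPM in sg6 (0.32 ± 0.15 and 0.30 ± 0.15, adjusted P = 0.15 and 0.17). *Rspo2* was at 319, 300 and 417 CPM in WT, 425, 368 and 393 CPM in sg5, and 375, 400 and 469 CPM in sg6 (0.19 ± 0.14 and 0.26 ± 0.14, adjusted P = 0.33 and 0.18). Per length *Rspo2* reached 77.3 ± 5.60 CPM per kilobase in sg5, beside 0.0252 ± 0.0105 for *Rspo3* in the same line.

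The transducers were well expressed and 0 of 4 were called in the polyA libraries. Over all genes tested 3.18% rose and 6.96% fell in sg5, and 3.64% and 7.54% in sg6, so 0 of 4 is not read as a result about the transducers. *Ctnnb1* (β-catenin) had the highest level per length of all 49 genes, at 170 ± 14.2 CPM per kilobase in WT. It was at 959, 876 and 812 CPM in WT, 1115, 969 and 908 CPM in sg5, and 981, 827 and 866 CPM in sg6 (0.18 ± 0.11 and 0.01 ± 0.11, adjusted P = 0.27 and 0.94). *Apc*, the scaffold of the destruction complex, was higher in every KO library than in any WT library, at 108 ± 11.2 CPM in WT and 162 CPM in both clones (0.59 ± 0.09 in each, adjusted P = 0.0013 and 0.0011), short of the fold threshold. *Apc* also lies on chromosome 18, and relative to the median of that chromosome it was at 0.19 in sg5 and 0.23 in sg6.

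*Tcf7l1* and *Tcf7l2* encode TCF factors of the pathway. *Tcf7l1* was at 147, 129 and 158 CPM in WT, 165, 123 and 146 CPM in sg5, and 137, 140 and 155 CPM in sg6, and its log2foldchange was 0.0001 in sg5 and -0.0062 in sg6. *Tcf7l2* was at 104, 119 and 173 CPM in WT, 215, 142 and 183 CPM in sg5, and 173, 168 and 205 CPM in sg6 (0.45 ± 0.20 and 0.46 ± 0.20, adjusted P = 0.14 and 0.12). The WT and KO libraries overlapped for both.

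Of 5 targets, 4 were tested and *Nkd2* was the 1 called, higher in both clones, as were 2.18% of all genes tested. *Nkd2* encodes a Dishevelled-binding inhibitor. It had 3, 10 and 3 counts in the WT libraries, 76, 148 and 58 in sg5, and 89, 77 and 42 in sg6. As CPM these were 0.105, 0.114 and 0.0667 in WT, 0.480, 0.646 and 0.358 in sg5, and 1.32, 1.24 and 0.746 in sg6, with no overlap between any of the lines. The ratio of summed CPM was 5.16 in sg5 (95% counting interval 3.12 to 9.15) and 11.2 in sg6 (6.76 to 20.04), and the fit gave 2.33 ± 0.40 and 3.48 ± 0.39 (adjusted P = 0.0028 and 0.00025). The 2 clones differed by -1.15 ± 0.29, with an adjusted P of 0.057, and with the replicate block by -1.15 with an adjusted P of 0.0080, a call. *Gm8062* overlaps *Nkd2* on the opposite strand.

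The other targets did not pass. *Tcf7* was at 18.7, 13.2 and 6.25 CPM in WT, 9.41, 8.65 and 7.18 CPM in sg5, and 7.62, 6.80 and 5.56 CPM in sg6 (-0.59 and -0.93, adjusted P = 0.21 and 0.060). *Lef1* was at 6.71, 4.83 and 7.03 CPM in WT, 13.6, 5.99 and 6.25 CPM in sg5, and 8.54, 4.74 and 7.69 CPM in sg6, with all lines overlapping. *Nkd1* was at 0.384, 0.549 and 0.489 CPM in WT, 0.922, 0.680 and 0.722 CPM in sg5, and 0.829, 0.498 and 0.764 CPM in sg6 (0.67 and 0.52, adjusted P = 0.079 and 0.17).

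*Axin2*, the textbook target of β-catenin, was close to silent. It had 7, 15 and 5 counts in WT, 14, 16 and 7 in sg5, and 2, 5 and 8 in sg6, and was too low to test. The ratio of summed CPM was 0.401 in sg5 (95% counting interval 0.238 to 0.685) and 0.481 in sg6 (0.238 to 0.936). These intervals cover counting error only, not the spread between libraries.

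**Figure D3:**
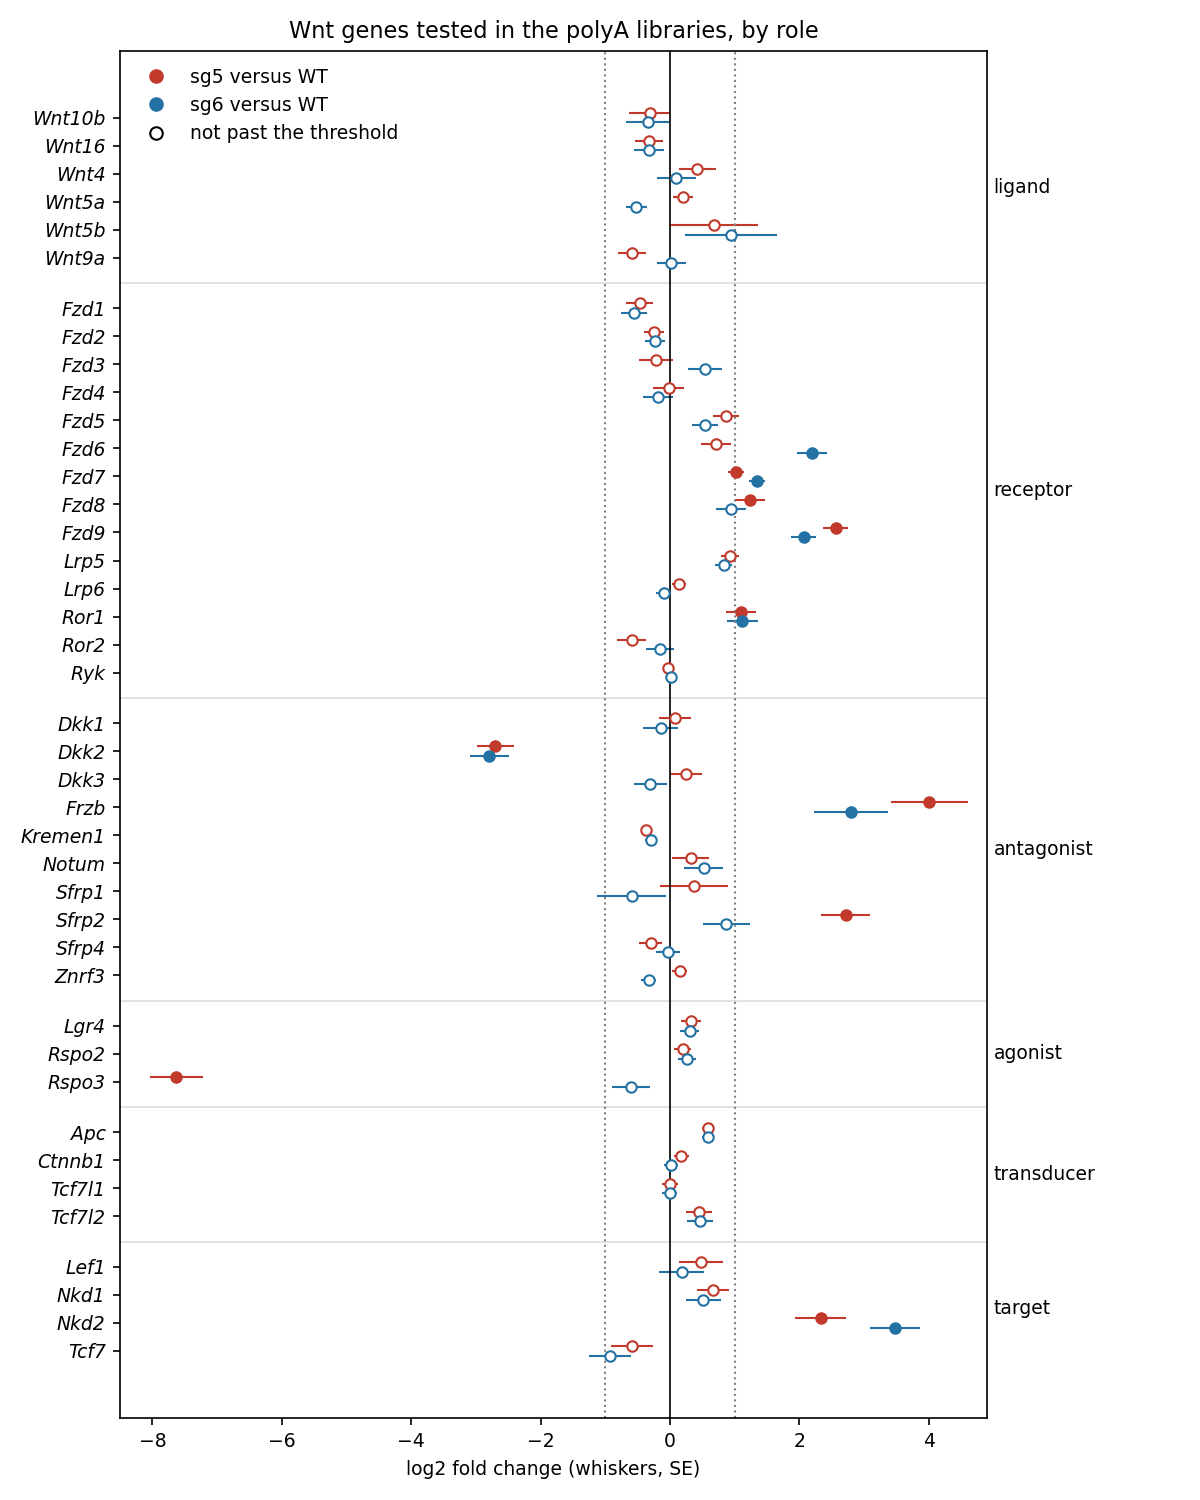
Log2foldchanges of the 41 Wnt genes tested in the polyA libraries, by role, for sg5 versus WT (red) and sg6 versus WT (blue). Whiskers are SEs of the edgeR fit, filled points are past the threshold and dotted lines mark log2foldchanges of -1 and 1. Every open point lies between the dotted lines, and the filled points are receptors and antagonists except for *Rspo3* and *Nkd2*.

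Compared directly in the polyA libraries, sg5 and sg6 differed in 3 of the 41 Wnt genes. *Sfrp2* was higher in sg5, and *Rspo3* and *Fzd6* were lower, against 1.36% and 1.25% of all genes tested. With the replicate block 5 genes were called, *Frzb* and *Nkd2* added. Genes called in 1 clone alone are not thereby different between clones, as the values of *Fzd8* show.

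The rRNA-depleted libraries were made at another facility from the same lines and counted with another pipeline, and were fitted apart. In them 35 of the 49 Wnt genes could be tested. In sg5, 7 rose and 2 fell, against 3.04% and 4.31% of 13303 genes tested. In sg6, 4 rose and 2 fell, against 2.16% and 3.59%. In both clones 2 rose (*Fzd9*, *Sfrp2*) and 1 fell (*Rspo3*), against 1.36% and 2.62%. Without WT replicate 2 the count in sg5 was 5 genes, and without WT replicate 3 it was 3 in sg6 and 1 in both clones. Without sg5 replicate 1 it was 7 in both clones, with *Dkk2*, *Frzb*, *Fzd7* and *Ror1* added. The median log2foldchange was 0.47 in sg5 and 0.28 in sg6, beside 0.08 and 0.04 over all genes tested. Of the 13303 genes, 2844 had all sg5 libraries above all WT libraries and 1987 all below, and in sg6 2277 and 1885. The 6 epithelial markers summed to 4.20 to 9.29 CPM in WT, 0.115 to 0.696 CPM in sg5 and 0.345 to 0.789 CPM in sg6, with *Krt5* at 0 throughout.

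*Fzd9* was at 8.85, 3.28 and 4.76 CPM in the WT rRNA-depleted libraries, 53.6, 42.5 and 28.6 CPM in sg5, and 40.5, 8.53 and 21.6 CPM in sg6. The second sg6 library fell within the WT range. The log2foldchange was 2.89 ± 0.48 in sg5 (adjusted P = 0.0033) and 2.07 ± 0.47 in sg6 (adjusted P = 0.029). The sg6 call was lost without WT replicate 2 or 3 or sg6 replicate 1 or 3, with log2foldchanges of 1.8, 1.95, 1.43 and 2.16.

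*Sfrp2* was at 1.62, 0.406 and 1.09 CPM in WT, 12.3, 16.9 and 8.16 CPM in sg5, and 12.3, 4.32 and 6.003 CPM in sg6. All KO libraries were above WT and the clones overlapped, unlike in the polyA libraries. The log2foldchange was 3.59 ± 0.48 in sg5 and 2.87 ± 0.48 in sg6 (adjusted P = 0.00066 and 0.0037), and the difference between clones was 0.72 ± 0.42 (adjusted P = 0.71).

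*Rspo3* was at 27.3, 8.15 and 13.1 CPM in WT, 5.77, 5.07 and 3.55 CPM in sg6, and at 0.0385, 0.167 and 0.271 CPM in sg5, from 1, 3 and 7 counts. All 3 lines were apart. *Rspo3* fell 99.4-fold in sg5 (-6.63 ± 0.58, adjusted P = 2.1e-05) and 3.37-fold in sg6 (-1.75 ± 0.40, adjusted P = 0.030). The sg6 call was lost without WT replicate 1 or 3 or sg6 replicate 2 or 3, with log2foldchanges of -1.09, -1.89, -1.78 and -1.54, while sg5 kept its call without any 1 library. Directly compared, sg5 was lower than sg6 by -4.88 ± 0.58 (adjusted P = 0.00096).

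Other calls in these libraries were made in 1 clone. In sg5, *Frzb* rose from 1.09 ± 0.882 CPM in WT to 44.2 ± 27.0 CPM (5.40 ± 0.73, adjusted P = 0.00069), and *Ror1* from 3.54 ± 1.25 to 14.4 ± 4.11 CPM (2.02 ± 0.29, adjusted P = 0.0012). In sg6 the same pair stood at 2.56 ± 0.69 and 1.06 ± 0.29 with adjusted P of 0.072 and 0.077. With the replicate block *Frzb* was called in sg6 (2.39, adjusted P = 0.00019) and between the clones (3.07, adjusted P = 2.3e-05, against 2.84 and 0.086 without it). *Tcf7l2* rose in sg5 from 21.7 ± 6.05 to 49.7 ± 11.1 CPM (1.19 ± 0.24, adjusted P = 0.013), and without WT replicate 2 this was 1.07 with an adjusted P of 0.063. Centred on the median of its chromosome *Tcf7l2* was at 0.98.

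*Lrp5* rose in sg5 (1.94 ± 0.44, adjusted P = 0.023), but the sg5 libraries were at 14.3, 57.7 and 14.6 CPM against 7.38 to 7.56 CPM in WT, so the second library carried much of the mean, and without it the value was 1.002 (adjusted P = 0.034). The call was lost without any 1 of the 3 WT libraries (adjusted P = 0.072 to 0.11). *Fzd8* rose in sg5 (1.68 ± 0.43, adjusted P = 0.043), a call lost without WT replicate 2 or 3 or sg5 replicate 1 or 2, at 1.5, 1.53, 1.29 and 1.81, with DESeq2 (adjusted P = 0.066) and with at least 10 counts required in every library (adjusted P = 0.055). *Dkk2* fell in sg5 from 10, 25 and 30 counts in WT to 1, 1 and 0 (-4.45 ± 1.0, adjusted P = 0.022), lost without WT replicate 2 or 3 or sg5 replicate 3, at -4.21, -4.33 and -3.84. *Dkk2*, tested through the WT libraries alone, had in sg6 0, 5 and 1 counts and an adjusted P of 0.075, or 0.046 with the replicate block.

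In sg6, *Fzd7* rose from 34.7 ± 5.08 CPM in WT to 78.0 ± 8.56 CPM (1.17 ± 0.19, adjusted P = 0.0031), and in sg5 it was at 0.84 ± 0.19 with an adjusted P of 0.024. *Fzd6* had 0, 1 and 0 counts in WT, 2, 1 and 10 in sg5, and 20, 62 and 57 in sg6, and was tested through the sg6 libraries alone. The ratio of summed CPM between sg6 and WT was 164, with a 95% counting interval of 28.9 to 6516, and the adjusted P was 0.00062. *Wnt5a* fell in sg6 from 3.02 ± 0.286 to 1.16 ± 0.537 CPM (-1.38 ± 0.34, adjusted P = 0.048), and was at -1.21 ± 0.34 in sg5 with an adjusted P of 0.070. That *Wnt5a* call was kept without sg5 replicate 1 or sg6 replicate 1 and lost without any other 1 library, each WT library included, at -1.1 to -1.4.

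Between the clones *Fzd4* was higher in sg5 and *Rspo3* and *Fzd6* were lower in the rRNA-depleted libraries, against 0.556% and 0.925% of all genes tested. *Fzd4* was at 27.8 ± 5.55 CPM in sg5 and 12.6 ± 3.50 CPM in sg6 (1.14 ± 0.22, adjusted P = 0.034), and in the polyA libraries at 23.5 ± 5.94 and 20.9 ± 7.24 CPM (0.16 ± 0.24, adjusted P = 0.82). The *Fzd4* call was kept without sg5 replicate 1 or sg6 replicate 1 and lost without any other 1 library (adjusted P = 0.052 to 0.24). The *Fzd6* call was kept without WT replicate 2, sg5 replicate 3 or sg6 replicate 1 and lost without any other (0.055 to 0.15).

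**Figure D4:**
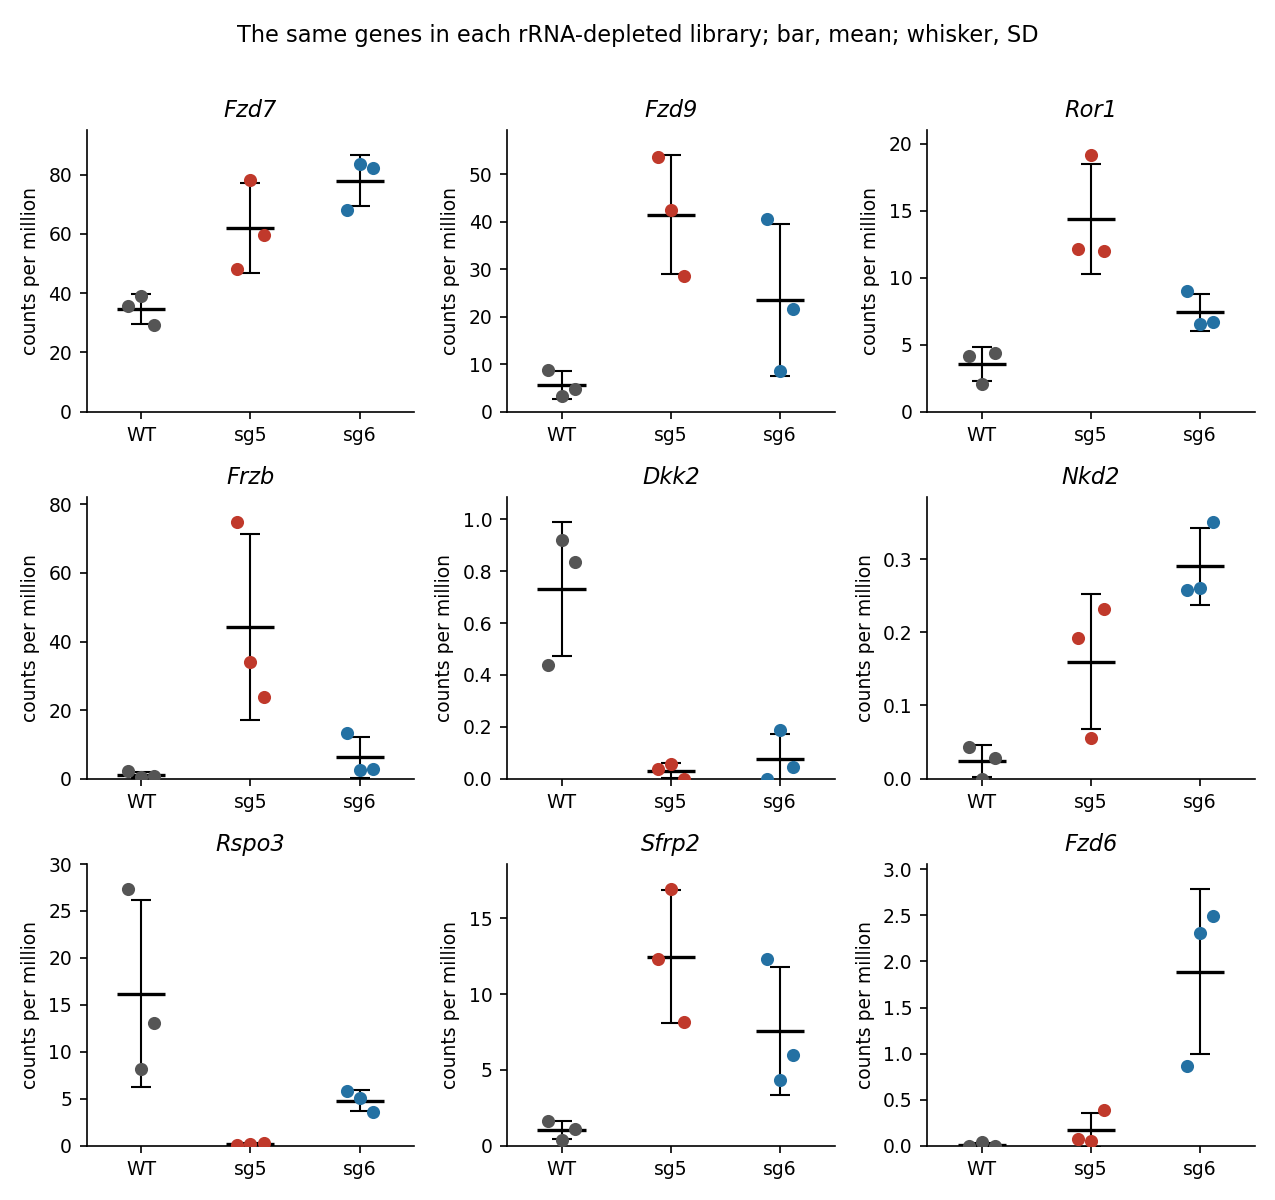
CPM of the same 9 Wnt genes in each rRNA-depleted library, on linear axes that start at 0. Points are libraries of WT (grey), sg5 (red) and sg6 (blue), bars are means and whiskers SDs of 3 libraries. *Rspo3* is again near 0 in sg5, and *Fzd6* is high in sg6 alone.

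Across the 2 kinds of library, the genes called in the polyA libraries kept their direction. In sg5, 8 of the 9 genes called could be tested in the rRNA-depleted libraries, 8 had the same sign and 7 were called there too (*Dkk2*, *Frzb*, *Fzd8*, *Fzd9*, *Ror1*, *Rspo3*, *Sfrp2*). In sg6, 6 of 7 could be tested, 6 had the same sign and 3 were called too (*Fzd6*, *Fzd7*, *Fzd9*). Both kinds came from the same lines, and the matching shares over all called genes were not counted, so these counts describe the values only. In the rRNA-depleted libraries *Dkk2* was tested through the WT libraries alone and *Fzd6* through the sg6 libraries alone. *Nkd2*, untested there, had 1, 0 and 1 counts in WT, 5, 1 and 6 in sg5, and 6, 7 and 8 in sg6. The ratio of summed CPM was 7.38 in sg5 (95% counting interval 1.64 to 67.9) and 12.4 in sg6 (3.02 to 109).

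**Figure D5:**
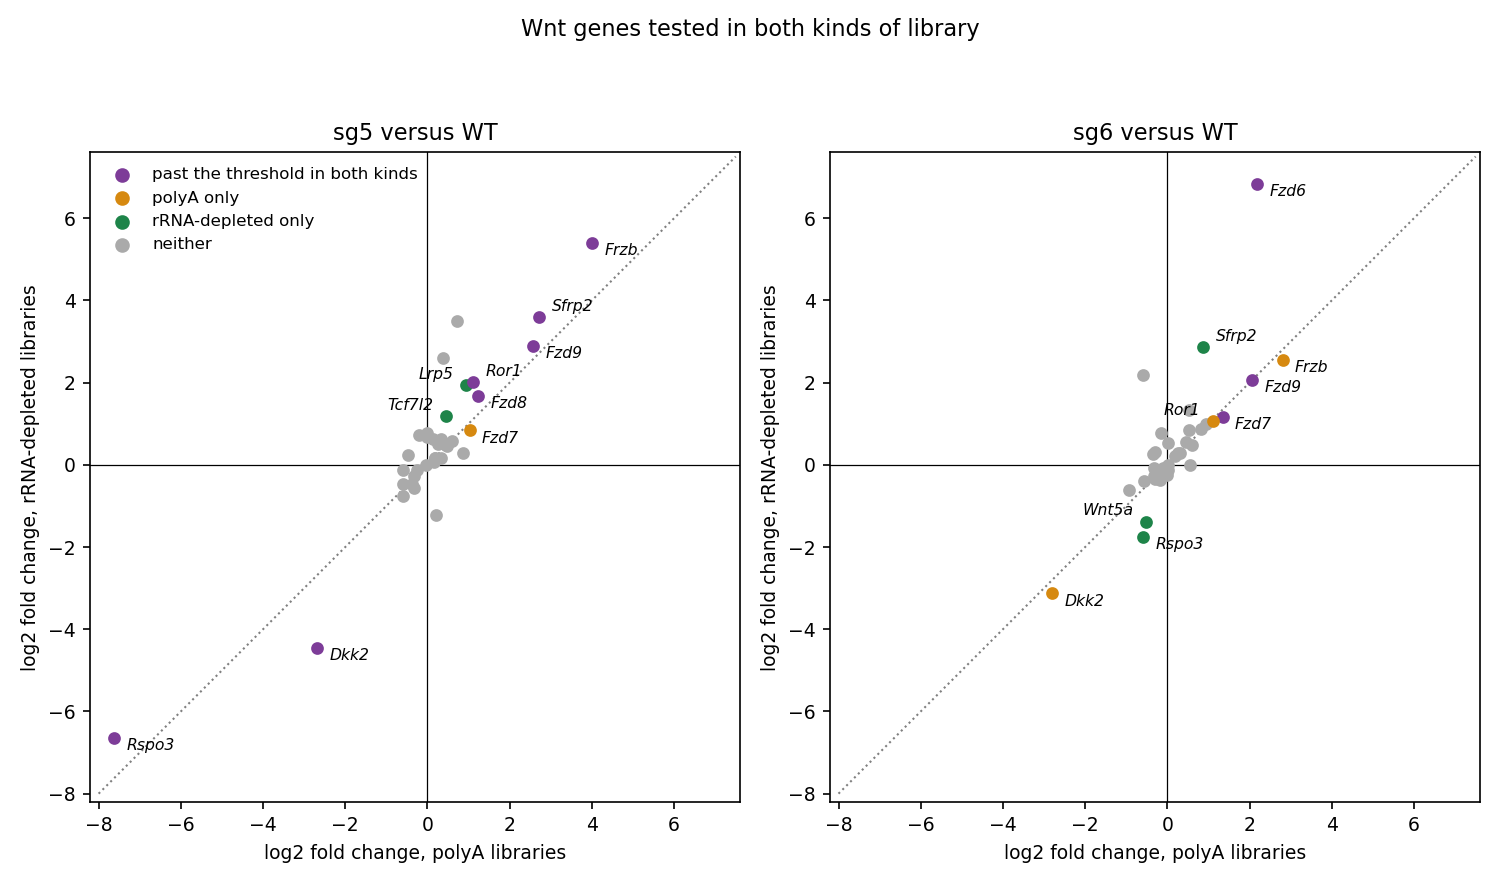
Log2foldchanges of the 35 Wnt genes tested in both kinds of library, polyA on the horizontal and rRNA-depleted on the vertical axis, for sg5 (left) and sg6 (right) versus WT. Purple points are past the threshold in both kinds, orange in the polyA libraries alone, green in the rRNA-depleted libraries alone and grey in neither, and the dotted line marks equal values. All points called in the polyA libraries lie at the lower left or upper right, with *Rspo3* in sg5 at the lower end.

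Further genes of the pathway were counted from a list of 89, of which 71 were tested in the polyA libraries. In sg5, 2 rose and 8 fell, in sg6, 3 rose and 9 fell, and in both clones 2 rose and 6 fell. Over all genes tested the shares were 3.18% and 6.96% in sg5, 3.64% and 7.54% in sg6, and 2.18% and 5.48% in both clones. The medians of the 71 were 0.0138 in sg5 and 0.0004 in sg6. The 18 genes of the destruction complex and its transducers, among them *Gsk3b*, *Axin1* and the Dishevelled genes, were all tested and 0 were called in both clones, nor were any of 10 further targets tested or of 5 genes of Wnt secretion.

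Those that rose in both clones were *Ptk7*, a co-receptor of the planar polarity branch (1.70 ± 0.0683 CPM in WT, 5.24 ± 1.97 in sg5, 8.24 ± 1.07 in sg6), and *Trabd2b*, a membrane protease that inactivates Wnt proteins (1.70 ± 0.374, 4.76 ± 0.8997 and 6.42 ± 1.75 CPM). *Apcdd1*, a membrane inhibitor of Wnt signaling, fell from 5.41 ± 0.441 CPM (WT) to 0.819 ± 0.304 CPM (sg5) and 0.649 ± 0.213 CPM (sg6) (-2.72 ± 0.29 and -3.05 ± 0.31, adjusted P = 0.00023 and 0.00014). *Draxin*, a secreted inhibitor, *Lgr6*, an R-spondin receptor, and *Pygo1*, a nuclear cofactor of β-catenin, fell as well (-2.03 and -1.94, -1.99 and -3.04, and -1.78 and -1.80). The planar polarity genes *Celsr3* (-2.65 and -1.96) and *Prickle1* fell too. *Prickle1* was at 6.36 ± 0.540 CPM in WT, 1.56 ± 0.164 CPM in sg5 and 0.214 ± 0.113 CPM in sg6, and the clones differed by 2.83 ± 0.29 (adjusted P = 0.00056). In the rRNA-depleted libraries 62 of the 89 were tested, and *Apcdd1* (-3.82 and -2.87) and *Celsr3* (-1.86 and -1.75) fell in both clones, *Celsr3* with a call that was kept without sg5 replicate 1 or sg6 replicate 1 and lost without any other 1 library.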

How the data were processed

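RNA from *Atrx* WT, sg5 and sg6 MPCs was sequenced as 9 polyA and 9 rRNA-depleted libraries, 3 per line, grouped by the titles of the samples. For the polyA libraries the authors quantified transcripts with Salmon (0.8.2 in the submitters' processing notes) on the mm10 UCSC annotation, summed them to genes with tximport, and deposited unnormalized expected counts, which are whole numbers. Reads of the rRNA-depleted kind were aligned by the authors with STAR (2.27.10a) on mm10, multiply mapped reads included, and the deposited values are raw TElocal counts of genes and transposable element loci. The strand setting of the counting is not given in the sources used here.

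Entrez identifiers were matched to symbols through RefSeq (24045 of 24100 rows). The 49 genes, the roles, the 89 further pathway genes and the 45 markers were chosen with earlier results of these data known. Each kind was fitted apart in edgeR (4.0.16, R 4.3.3), with filterByExpr (minimum count 10, minimum total 15), TMM normalization and the quasi-likelihood test over 9 libraries in 3 groups. P values were adjusted by Benjamini-Hochberg over all features tested, which for the rRNA-depleted libraries were 56086 genes and element loci. CPM are counts over the effective library size (normalized by TMM), and CPM per kilobase divide by exon length in GENCODE (GRCm38). Ratios of summed CPM carry exact 95% intervals for counting error only. DESeq2 (1.42.0) and other settings served as alternatives, and the fits were tested on simulated data. No 2 libraries were identical. Genes given with the value of each library were those called in both clones, those that differed between clones in the polyA libraries, and the 3 of each role with the highest level per length in WT. In the polyA comparison of sg5 with sg6, and in the rRNA-depleted comparisons of sg5 with sg6 and of sg6 with WT, the deviations of all 3 same-numbered pairs of libraries correlated above 0.1 (0.28 to 0.37, 0.17 to 0.64 and 0.11 to 0.54), so fits with the replicate number as a block are given beside calls that they change. In the other comparisons 2 of 3 same-numbered pairs did. This pairing comes from the data and not from the labels, and it was not confined to same-numbered libraries. In the rRNA-depleted libraries sg5 replicate 3 correlated at 0.56 with sg6 replicate 2 and at 0.17 with sg6 replicate 3. There WT replicate 3 correlated at 0.25 with sg6 replicate 1 and at 0.11 with sg6 replicate 3. A library correlated best with its own number in 12 of 18 comparisons there, and in 15 of 18 in the polyA libraries. Fold changes were also centred on the median of each chromosome.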

Additional observations from a re-analysis of the deposited data

Results flagged for a closer look

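The clones sg5 and sg6 differed, by the test of the difference itself in the edgeR fit, in 3 Wnt genes of each kind of library. In the polyA libraries the log2foldchange of sg5 against sg6 was -1.48 for *Fzd6*, 1.84 for *Sfrp2* and -7.03 for *Rspo3*. In the rRNA-depleted libraries it was 1.14 for *Fzd4*, -3.34 for *Fzd6* and -4.88 for *Rspo3*. *Rspo3* and *Fzd6* thus differed in the same direction in both kinds, while *Sfrp2* (0.72, adjusted P = 0.71) was not called in the rRNA-depleted libraries and *Fzd4* (0.16, adjusted P = 0.82) was not called in the polyA libraries. *Fzd6* was tested in the rRNA-depleted libraries through the sg6 libraries alone, so a lower sg5 was the call open to it there. That call was kept in 3 of 9 fits that left out 1 library. Each line is 1 clone, so guide and clone cannot be told apart.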

How the results depend on the processing

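The counts of Wnt genes called were 9 in sg5, 7 in sg6, 3 between the clones and 6 in both clones in the polyA libraries, and 9, 6, 3 and 3 in the rRNA-depleted libraries. For further pathway genes in both clones they were 8 and 2. With the adjusted P alone the polyA counts were 14, 12, 5 and 11, with 18 pathway genes, and the rRNA-depleted pathway count was 4. Over all 15480 genes this setting called 2105 higher and 2075 lower in sg5, against 493 and 1078 at the main setting. In sg6 these were 2491 and 2260, against 563 and 1167, and between the clones 327 and 414, against 211 and 193. Counts in this section thus show how calls move with the setting and are not read as results about Wnt genes. With a log2foldchange beyond 2 and an adjusted P below 0.01, 1 Wnt gene differed between the clones in the polyA libraries, with 2 pathway genes, and the rRNA-depleted counts were 5, 2, 1 and 1, with 1 pathway gene. Over all genes it called 64 higher and 72 lower between the clones in the polyA libraries. In the rRNA-depleted libraries it called 114 and 304 in sg5, 104 and 258 in sg6, and 31 and 39 between the clones. A test against a log2foldchange of 1 (glmTreat) gave 1 between the clones and 4 pathway genes in the polyA libraries, and 5, 2, 1 and 1 with 1 pathway gene in the rRNA-depleted libraries. Over all genes it called 69 higher and 72 lower between the clones in the polyA libraries. In the rRNA-depleted libraries it called 114 and 310 in sg5, 110 and 269 in sg6, and 25 and 33 between the clones. *Atrx* (-1.24 and -1.20 in the polyA libraries, -1.39 and -1.31 in the rRNA-depleted libraries) passed neither of the last pair of settings, which by construction ask for a larger change.

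In the rRNA-depleted libraries the count in both clones was 6 with DESeq2, 5 with gene rows alone, 6 with gene rows alone and no filter, and 6 with only the 2 groups compared, where 1 gene differed between the clones. Over all genes the counts moved too. DESeq2 called 567 higher and 585 lower in sg5, against 405 and 573 in the main fit, and 354 and 523 in sg6, against 288 and 477. Gene rows alone gave 4 pathway genes. With at least 10 counts in every library, 25 Wnt genes were tested, 3 were called in sg6 and 1 between the clones, and 0 pathway genes were called in both clones by edgeR, since *Apcdd1* and *Celsr3* had libraries under 10 counts and were not tested. The cause of the other shifts was not tested.

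Leaving out 1 library at a time gave 7 to 10 genes in sg5, 6 to 9 in sg6, 2 to 3 between the clones, 4 to 8 in both clones and 8 to 9 pathway genes in the polyA libraries. The rRNA-depleted ranges were 5 to 9, 3 to 9, 1 to 4, 1 to 7 and 1 to 3. *Atrx* ranged from -1.31 to -1.17 in sg5 and -1.26 to -1.13 in sg6 in the polyA libraries, and from -1.64 to -1.16 and -1.41 to -1.20 in the rRNA-depleted libraries. Some uncalled differences between sg5 and sg6 changed sign when 1 library was left out. In the polyA libraries *Dkk2* ran from -0.13 to 0.30, *Fzd8* from -0.0142 to 0.47 and *Ror1* from -0.25 to 0.21. Among rRNA-depleted values *Dkk2* ran from -1.86 to 0.35 and *Wnt5a* from -0.0713 to 0.61. Of the values of single genes under all alternatives, 1195 kept direction and side of the threshold, 92 fell short of it, 37 newly passed it and 9 changed sign.

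Replicate numbers recur in the 3 lines but the labels do not say what they share. With the replicate block the polyA count between the clones was 5, with *Frzb* and *Nkd2* added, and the other polyA counts were 9, 7 and 6. For rRNA-depleted libraries the block gave 11 in sg5, 9 in sg6, 4 between the clones, 7 in both clones and 5 pathway genes. Over all 13303 genes the block called 547 higher and 689 lower in sg5, against 405 and 573 without it. In sg6 these were 361 and 598, against 288 and 477, and between the clones 136 and 156, against 74 and 123. The block changed no other call of a Wnt gene beyond those named here or beside their values, apart from *Wnt5a* in sg5 in the rRNA-depleted libraries (-1.26, adjusted P = 0.031). In that comparison 2 of 3 same-numbered pairs correlated above 0.1. Of the 49 Wnt genes 14 were too low to test in the rRNA-depleted libraries and 8 in the polyA libraries. Centred on each chromosome, 7 genes were called in sg5 in the polyA libraries, without *Fzd7* and *Fzd8*.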

Other observations

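Library number 1 was the highest of its line in all 3 lines for 8 of the 41 Wnt genes tested in the polyA libraries (19.5%), against 11.6% of all genes tested. In the rRNA-depleted libraries this held for 8 of 35 (22.9%), against 21.3% of all genes tested. *Frzb*, *Fzd8*, *Sfrp1* and *Ctnnb1* were among them in both kinds. *Sfrp1*, a secreted decoy for Wnt ligands, was at 4.12, 1.40 and 1.31 CPM in the WT rRNA-depleted libraries, 32.1, 5.79 and 2.40 CPM in sg5, and 24.6, 3.13 and 2.76 CPM in sg6, with log2foldchanges of 2.59 and 2.18 and adjusted P of 0.17 and 0.35. With the replicate block these were 2.04 and 1.66, with adjusted P of 0.0030 and 0.014. The pairing behind the block comes from the data, and for sg5 versus WT it did not hold throughout. There the third same-numbered pair correlated at -0.23. For sg6 versus WT, WT replicate 3 correlated at 0.25 with sg6 replicate 1 and at 0.11 with sg6 replicate 3.

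*Tcf7l1* stood at 145 CPM in the WT polyA libraries and 5.73 CPM in the WT rRNA-depleted libraries, and *Lrp5* at 122 and 7.48 CPM. The tables were normalized apart and counted with different tools, so these levels are given side by side and not compared.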
